A study of Homo sapiens with 9 samples.

Results

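Metallothioneins and the zinc response were examined in ARPE-19 cells, an established human retinal pigment epithelial line, through 7 genes: the metallothionein genes MT1E, MT1F, MT1G, MT1X and MT2A, the zinc exporter gene SLC30A1 and the zinc sensor gene MTF1. They were taken by gene symbol. A gene counted as measured where a probe set of the array named it and no other gene, and the probe set with the highest mean was used where there were several. By that rule 3 of the 7 were measured, MT1G, MT1X and SLC30A1, among 14207 genes in all. MT1E and MT1F were named only by probe sets that name several metallothioneins. MT2A and MTF1 were named by none of the probe sets analysed here, so the most studied metallothionein and the sensor itself are without a value.

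The 9 arrays held total RNA from cells grown to confluence with serum and then kept in albumin medium. In each of 3 groups of 3 arrays the cells had received vehicle, a low dose of cigarette smoke condensate (100 µg/ml, CSC_100) or a high dose (250 µg/ml, CSC_250). The condensate was a commercial preparation from research cigarettes, dissolved in DMSO and diluted in medium. The sources used here state neither the vehicle's composition nor the length of treatment. By its title, the study asked how oxidative stress affects mitochondria and the unfolded protein response. Nothing in the labels says whether the numbered arrays of a group were separate cultures, and p-values therefore reflect spread among these arrays alone, which may be technical. All cells were of 1 line, and the same 3 control arrays serve both doses.

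Metallothioneins are very small, cysteine-rich proteins of the cytosol and nucleus that bind zinc and copper, and also cadmium and other toxic metals. Free zinc is sensed by MTF1, a zinc finger transcription factor that then binds metal response elements in promoters and switches on the metallothioneins and SLC30A1, which exports zinc across the plasma membrane. Oxidants and electrophiles can release zinc from metallothionein cysteines, cigarette smoke carries cadmium, and the retinal pigment epithelium is a zinc-rich tissue.

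Promoters were searched for the metal response element. The windows ran from 250 bases before to 50 after the annotated start site, in RefSeq sequence of build GRCh38.p14, and 4 of the 7 genes were in the table used (MT1X, MT2A, SLC30A1 and MTF1). The metal response element core was searched as TGCACNC and TGCGCNC on both strands. MT2A held 8 matches, MT1X 4, SLC30A1 2 and MTF1 0. Of the other metallothioneins in the table, MT1H held 8 and MT1B and MT4 held 3 each. Of 35116 promoters of the same length, 29.6% held at least 1 match, 8.60% at least 2, 0.601% at least 4 and 0.0199% at least 8. The 2 below are those of the measured genes, printed 5′ to 3′ on the gene's own strand, with the element matches in capitals (a match on the opposite strand reads as its reverse complement). The MT1X window lies at chr16:56682220-56682519 on the plus strand and that of SLC30A1 at chr1:211579112-211579411 on the minus strand.
MT1X: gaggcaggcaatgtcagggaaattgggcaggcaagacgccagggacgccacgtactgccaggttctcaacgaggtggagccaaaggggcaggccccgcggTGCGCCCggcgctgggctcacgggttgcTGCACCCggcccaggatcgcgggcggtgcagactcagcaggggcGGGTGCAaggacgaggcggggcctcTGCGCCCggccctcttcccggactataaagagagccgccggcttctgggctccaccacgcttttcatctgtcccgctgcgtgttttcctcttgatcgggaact
SLC30A1: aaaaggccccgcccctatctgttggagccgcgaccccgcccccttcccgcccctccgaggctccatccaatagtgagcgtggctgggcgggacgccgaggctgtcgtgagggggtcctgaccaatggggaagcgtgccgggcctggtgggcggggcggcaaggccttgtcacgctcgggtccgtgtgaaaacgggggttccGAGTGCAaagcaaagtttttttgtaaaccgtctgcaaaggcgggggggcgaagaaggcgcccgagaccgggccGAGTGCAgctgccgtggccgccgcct

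In MT1X all 4 matches lay before the start site, the nearest at positions -53 to -47. In SLC30A1 1 match lay at -49 to -43 and the other after the start, at 25 to 31. The core of the antioxidant response element, through which NRF2 acts, was searched as TGACNNNGC on both strands. It was found once each in MT1X, MT2A and SLC30A1, 0 times in MTF1 and at least once in 13.3% of all promoters. No antioxidant match overlapped a metal response match in these windows. A match describes the letters only, since binding was not measured.

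**Figure D1:**
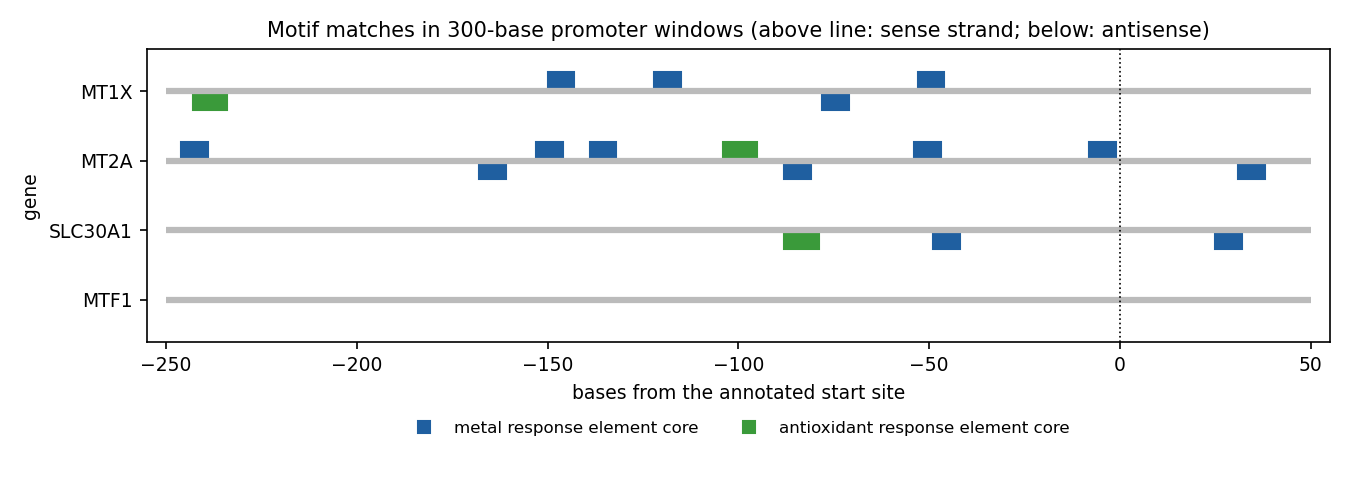
Matches to the metal response element core (blue) and the antioxidant response element core (green) in the promoter windows of MT1X, MT2A, SLC30A1 and MTF1; the x axis gives bases from the annotated start site, boxes above a line are on the sense strand and boxes below on the antisense strand. MT2A carries 8 metal response matches, MT1X 4, SLC30A1 2 and MTF1 0.

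The arrays were first checked as a whole. The median log2 value per array ranged from 4.42 to 4.59, with the lowest median and upper quartile in control replicate 1. Lower quartiles ran from 3.04 to 3.10 in vehicle arrays, 2.89 to 3.09 in CSC_100 and 2.93 to 3.02 in CSC_250. Of the epithelial keratins, KRT8 and KRT18 lay between 8.04 and 11.5 on every array. Of 11 measured pigment epithelium markers 0 passed the test at either dose, and their mean level per array was lower in treated cells, at 4.69 to 5.11 in vehicle arrays, 4.37 to 4.59 in CSC_100 and 4.33 to 4.56 in CSC_250. The transcription factor genes OTX2 and MITF were well above the array medians, and TYRP1 and RDH5 were above them too. TYRP1 ran from 5.39 to 8.77 in the controls alone, and PMEL lay on both sides, from 4.03 to 5.36. The visual cycle isomerase gene RPE65 lay between 2.33 and 2.69 on all arrays, below every array's lower quartile. RLBP1, BEST1, LRAT, SERPINF1 and TTR lay between 2.54 and 3.87, also below the medians. The 3 leukocyte and 3 endothelial markers measured reached no more than 4.04. Of 4 fibroblast markers, the collagen gene COL1A1 stood at 6.55 in control replicate 2 and between 3.50 and 3.75 on the other 8 arrays. Markers of other cell types had lower means in treated cells too. These were 4 of 4 fibroblast markers at each dose, and 2 and 3 of 3 leukocyte markers at 100 and 250 µg/ml. For endothelial markers it was 3 and 2 of 3. Of all genes, 40.8% and 42.7% had a higher mean. The part of these markers in the results was not tested.

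MT1G and MT1X, the metallothioneins measured alone, lay low on the scale of most arrays and did not pass the test at either dose. SLC30A1, the zinc exporter, had a mean 0.48 log2 units higher at 250 µg/ml than in the controls, with no overlap of arrays, and did not pass either. In the fit with limma over all genes, 0 of 3 passed an adjusted p of 0.05 at 100 µg/ml, where 0.0633% of all genes did (0.0563% higher and 0.00704% lower), and 0 of 3 at 250 µg/ml, where 0.549% did (0.387% higher and 0.162% lower). Between both doses 0 of 3 passed and 0% of all genes. At an unadjusted p under 0.05 the counts were 0, 1 (SLC30A1) and 0 of 3, against 14.6%, 16.6% and 1.84% of all genes. With unmoderated variance 0 of 3 passed the adjusted p of 0.05 in each comparison. That count cannot weigh on the members, since even HMOX1, changed by 4.23 log2 units at 250 µg/ml, missed the threshold in that setting.

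MT1G, a metallothionein of the MT1 subfamily, had log2 values of 2.90, 3.10 and 3.15 in the controls, 2.65, 2.61 and 2.48 at 100 µg/ml, and 2.50, 3.66 and 3.09 at 250 µg/ml. The 3 arrays at 100 µg/ml were all below the 3 controls, a lack of overlap shared by 18.3% of all genes (11.9% with the treated arrays lower). At 250 µg/ml the arrays spread from below the lowest to above the highest control. The change at 100 µg/ml was -0.47 log2 units with an SE of 0.25 (3 arrays a group, limma adjusted p = 0.43, 95% interval -1.04 to 0.11). At 250 µg/ml it was 0.03 ± 0.25 (adjusted p = 0.96, interval -0.55 to 0.61), and without CSC_250 replicate 2 or control replicate 1 its sign turned (-0.26 and -0.05).

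MT1X, a widely expressed member of the same subfamily, had values of 2.40, 3.23 and 2.70 in the controls, 2.28, 2.76 and 2.36 at 100 µg/ml, and 2.51, 2.52 and 4.40 at 250 µg/ml. CSC_250 replicate 3 was the highest array, well above control replicate 2, the next, and the groups overlapped in all comparisons. The changes were -0.31 ± 0.48 at 100 µg/ml (adjusted p = 0.80, interval -1.41 to 0.79) and 0.37 ± 0.48 at 250 µg/ml (adjusted p = 0.73, interval -0.73 to 1.46). Without CSC_250 replicate 3 the second was -0.26. The 95% intervals of both genes included 0 at each dose.

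Where the metallothioneins lay on each array's scale bears on how they can be read. MT1G exceeded 7.78% to 38.5% of all genes of an array and MT1X 1.49% to 46.6%. Lower quartiles of the arrays lay between 2.89 and 3.10, and MT1X was under 3.10 on 7 of 9 arrays. No detection calls were used, levels of different probe sets are not comparable as amounts of RNA, and whether these genes were expressed cannot be read from low values. The mean of both genes per array ran from 2.65 to 3.16 with vehicle, from 2.42 to 2.68 in CSC_100 and from 2.50 to 3.74 in CSC_250, so that each dose overlapped the controls. Its change was -0.39 at 100 µg/ml and 0.20 at 250 µg/ml, beside a pooled SD between arrays of 0.40.

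SLC30A1 encodes ZnT1, the zinc exporter of the plasma membrane and, beside the metallothioneins, the best known target of MTF1. Its values were 6.31, 6.81 and 6.87 in the controls, 6.66, 6.57 and 7.05 at 100 µg/ml, and 7.02, 7.29 and 7.12 at 250 µg/ml. All 3 arrays at 250 µg/ml lay above all 3 controls, while those at 100 µg/ml overlapped both other groups. At 250 µg/ml 22.9% of all genes had groups without overlap (8.61% with the treated arrays higher). The change was 0.48 log2 units, 1.40-fold, with an SE of 0.19 (3 arrays a group, limma adjusted p = 0.25, 95% interval 0.06 to 0.91), and 0.31 without control replicate 1 (adjusted p = 0.39). At 100 µg/ml it was 0.10 ± 0.19 (adjusted p = 0.85), a sign that turned on leaving out control replicate 1 (-0.08) or CSC_100 replicate 3 (-0.05). From 100 to 250 µg/ml the difference was 0.39 ± 0.19 (adjusted p = 1.0, interval -0.04 to 0.81). The order of group means was vehicle, 100 and 250 µg/ml, and the first and second differed by less than their SDs (0.31 and 0.26).

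**Figure D2:**
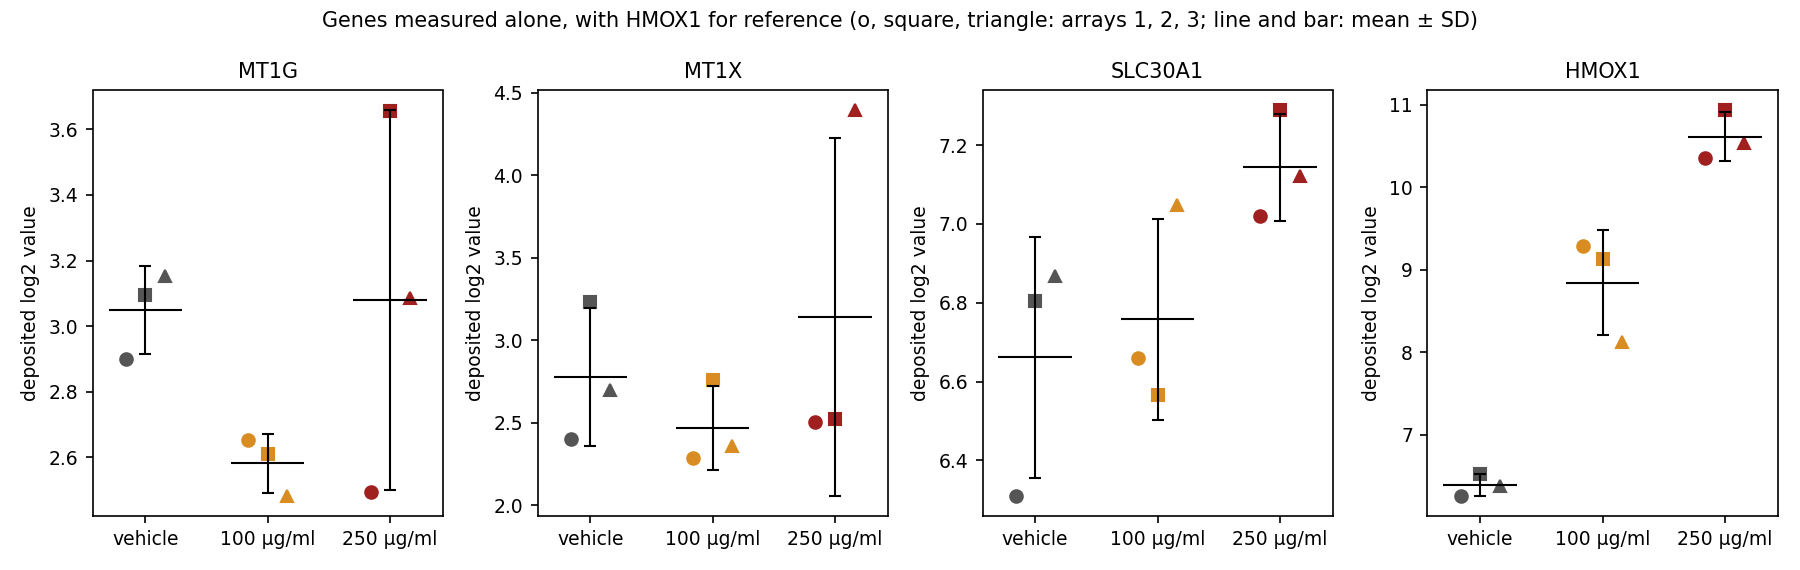
Deposited log2 values of MT1G, MT1X, SLC30A1 and, for reference, the haem oxygenase gene HMOX1 on the 9 arrays; points are arrays (circle 1, square 2, triangle 3), lines are group means and bars ± SD (n = 3), and each panel has its own y axis. MT1G and MT1X overlap between vehicle and 250 µg/ml, all 3 SLC30A1 values at 250 µg/ml lie above the controls, and HMOX1 stands from 6.26 to 6.53 in the controls and from 10.4 to 10.9 at 250 µg/ml.

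Genes of the MT1 subfamily are close copies of one another, so a probe set can take up RNA of several of them. The platform annotation had 13 probe sets that name a metallothionein gene or pseudogene, of which 7 name 1 gene and 6 name several. MT1E was named in 2 of the 6 and MT1F in 1, and none of their signal can be given to 1 gene. Fitted together with all probe sets that name several genes, 0 of the 6 passed limma's adjusted p of 0.05 in any comparison (0.00602% of all 16612 features at 100 µg/ml, 0.325% at 250 µg/ml and 0% between doses), and 0 had an unadjusted p under 0.05.

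The probe set shared by MT1E, MT1M and the pseudogene MT1JP had values of 3.78, 3.63 and 4.39 in the controls, 3.96, 4.94 and 4.16 at 100 µg/ml, and 4.55, 3.63 and 4.54 at 250 µg/ml. Its groups overlapped, with changes of 0.42 ± 0.34 (limma adjusted p = 0.59) and 0.31 ± 0.34 (0.68). The other one that names MT1E, beside MT1JP, MT1M and MT1P3, stayed between 2.11 and 2.45 on all arrays. The probe set shared by MT1F and MT1H had values of 4.74, 5.25 and 6.16 in the controls, 4.57, 5.11 and 5.08 at 100 µg/ml, and 5.13, 5.72 and 5.87 at 250 µg/ml. Here too both doses overlapped the controls, with changes of -0.46 ± 0.36 (adjusted p = 0.57) and 0.19 ± 0.36 (0.82). All 3 arrays at 250 µg/ml lay above all 3 at 100 µg/ml, a lack of overlap seen in 6.17% of genes measured alone (3.32% higher and 2.86% lower), with a difference of 0.65 ± 0.36 (adjusted p = 1.0). Between same-numbered arrays the differences were 0.56, 0.61 and 0.79, and with the replicate block, an alternative chosen after seeing the data, the SE was 0.09 (limma adjusted p = 0.17, unadjusted p = 0.00038). With that block 0 of 16612 features passed between doses, and 10.9% had an unadjusted limma p under 0.05. Without the block 1.84% of genes measured alone did.

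MT1X was also named by a probe set it shares with the pseudogene MT1IP, which had values of 3.74, 3.68 and 2.48 in the controls, 2.53, 2.72 and 2.72 at 100 µg/ml, and 2.72, 2.54 and 3.35 at 250 µg/ml. CSC_250 replicate 3 was the highest treated array here as in the probe set of MT1X alone, but control replicate 1, the highest control here, was the lowest control in that of MT1X alone. The changes of the shared probe set were -0.64 ± 0.34 (limma adjusted p = 0.42) and -0.43 ± 0.34 (0.55). At 250 µg/ml its sign was thus opposite to that of MT1X alone. The probe set shared by MT1H and MT1HL1 overlapped between groups at 4.10 to 5.70, and that of MT1M and MT1P3 at 3.34 to 4.59. The former had changes of 0.49 ± 0.36 (limma adjusted p = 0.55) and 0.26 ± 0.36 (0.75). The latter had -0.62 ± 0.28 (0.35) and -0.31 ± 0.28 (0.60).

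**Figure D3:**
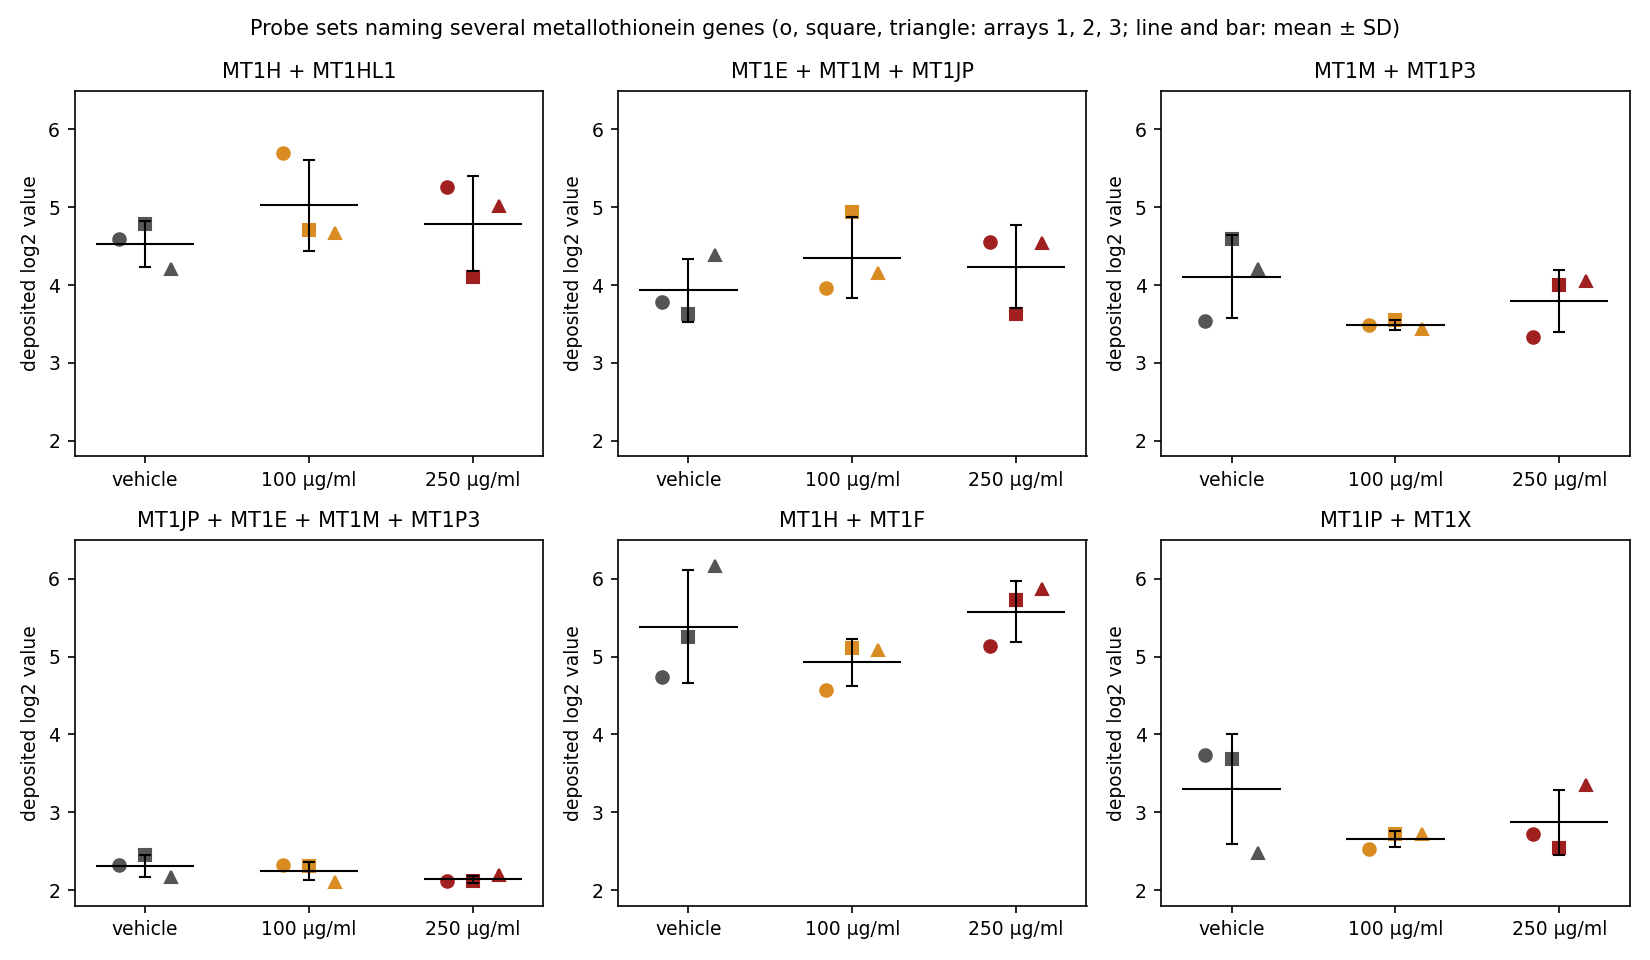
Deposited log2 values on the 9 arrays for the 6 probe sets that name more than 1 metallothionein gene or pseudogene; points are arrays (circle 1, square 2, triangle 3), lines are group means, bars ± SD (n = 3), and all panels share 1 y range. Each dose overlaps the vehicle controls in all 6 probe sets.

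Of the 11 other metallothionein genes and pseudogenes listed, 5 were measured alone and 0 passed at either dose. MT1B, MT1L and MT1DP lay under 3.00 on all arrays. MT3, a form best known from neurons that restrains neurite growth, lay between 3.57 and 3.96. Its treated arrays were below the controls at both doses, as were those of 11.9% and 14.3% of all genes. The changes of MT3 were -0.26 ± 0.09 (limma adjusted p = 0.27) and -0.18 ± 0.09 (0.37). MT4, known from stratified squamous epithelium, had values of 5.48, 5.62 and 5.96 in the controls, 6.30, 6.25 and 5.88 at 100 µg/ml, and 6.38, 6.33 and 6.05 at 250 µg/ml. All 3 arrays at 250 µg/ml were above the controls (8.61% of all genes), and CSC_100 replicate 3 fell within them. Its changes were 0.45 ± 0.17 (adjusted p = 0.29) and 0.56 ± 0.17 (0.17), the largest of the 5 at 250 µg/ml.

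SLC30A1 belongs to a family of 10 transporters, the SLC30 or ZnT proteins. Most of them move zinc out of the cytosol across the plasma membrane or into vesicles and the Golgi. All 10 were measured. At 100 and at 250 µg/ml 0 passed the limma test, with 2 and 6 of 10 at an unadjusted p under 0.05, against 14.6% and 16.6% of all genes. Group means were higher in 7 of 10 at each dose, where 40.8% and 42.7% of all genes were higher, and the median change was 0.15 and 0.44 (-0.05 and -0.04 over all genes). The 3 with lower means, SLC30A2, SLC30A8 and SLC30A10, were dim, with control means of 3.35, 2.63 and 3.06. The values over all genes were not matched to the family in level. Treated arrays lay above all controls in 3 and 4 of 10 (6.41% and 8.61% of all genes) and below in 0 and 2 (11.9% and 14.3%).

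The largest change among them was that of SLC30A6, whose product works with SLC30A5 to load zinc into the early secretory pathway. Its values were 7.16, 7.37 and 7.73 in the controls, 8.08, 8.03 and 7.98 at 100 µg/ml, and 8.49, 8.54 and 8.02 at 250 µg/ml, with no overlap of either dose with the controls. The changes were 0.61 ± 0.18 (limma adjusted p = 0.22) and 0.93 ± 0.18 (0.063). SLC30A6 passed at 250 µg/ml in 4 of 17 alternatives, over which its limma adjusted p ran up to 0.30. It passed without control replicate 3 (1.08, adjusted p = 0.031), without CSC_250 replicate 3 (1.09, 0.043), with array weights (0.035) and after quantile normalization (0.049). Calls over all genes also rose without control replicate 3, to 296 from 78 in the reported fit. Of the other SLC30 genes, SLC30A9 passed without CSC_250 replicate 3, and SLC30A7 and SLC30A9 without both dosed arrays numbered 3. SLC30A7, a zinc transporter of the Golgi, had changes of 0.59 ± 0.22 (adjusted p = 0.28) and 0.68 ± 0.22 (0.18). SLC30A4 and SLC30A9, named after their values were seen, had 0.66 ± 0.19 and 0.58 ± 0.22 at 250 µg/ml (0.15 and 0.25).

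**Figure D4:**
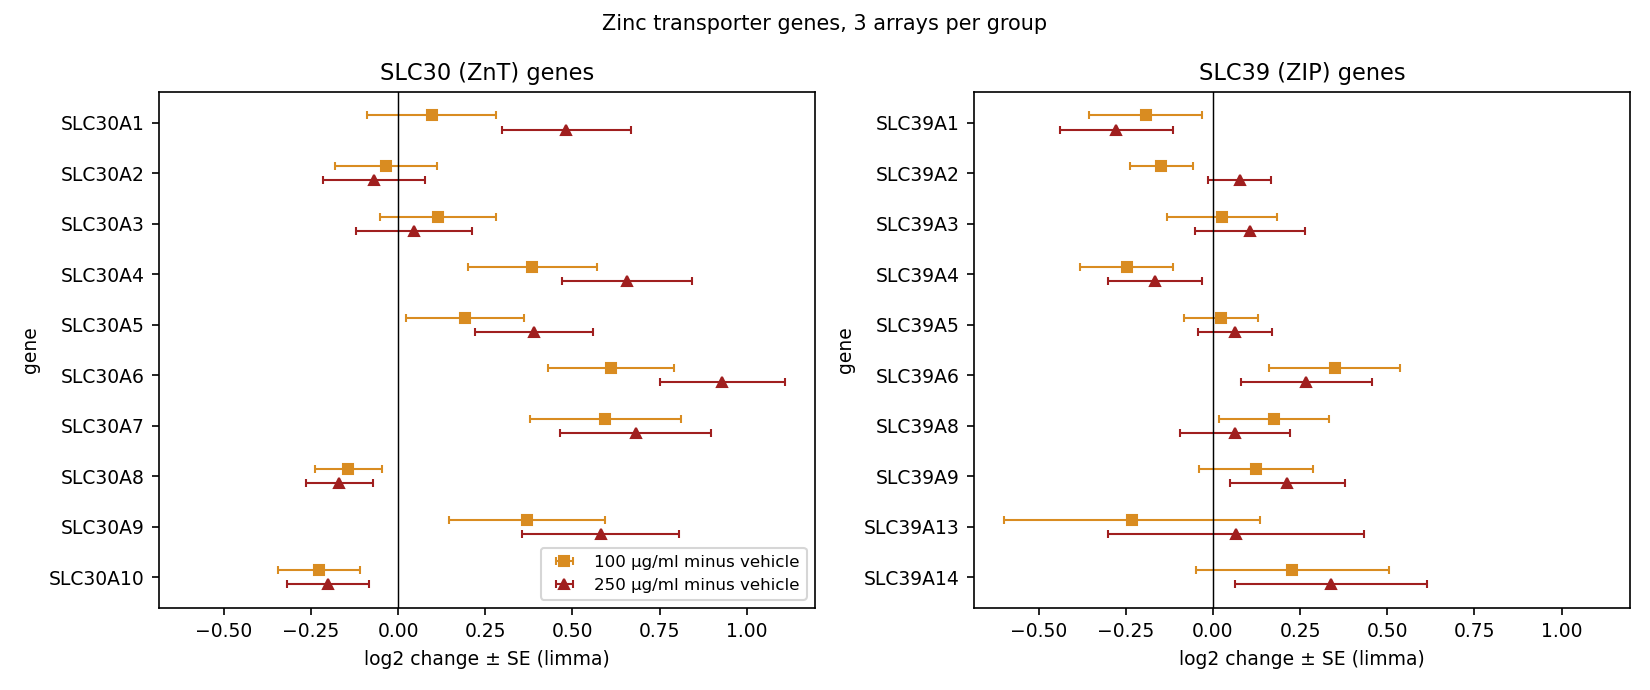
Change in log2 value from vehicle at 100 µg/ml (squares) and 250 µg/ml (triangles) for the SLC30 family genes (left) and zinc importer genes (right) measured alone. Bars are ± SE from the limma fit with 3 arrays per group, and both doses share the same controls. SLC30A6 has the largest change among the SLC30 genes, at 0.93 ± 0.18, and no importer gene exceeds 0.35 in size.

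Zinc importers of the SLC39 or ZIP family carry zinc into the cytosol. Of 14 listed, 10 were measured and 0 passed limma in any comparison. At an unadjusted p under 0.05 there were 0 of 10 at each dose, against 14.6% and 16.6% of all genes. Their median changes were 0.02 at 100 µg/ml and 0.07 at 250 µg/ml, within -0.25 to 0.35 and -0.28 to 0.34. SLC39A14, which also carries iron and manganese, had the largest change at 250 µg/ml (0.34 ± 0.28, adjusted p = 0.56), and the plasma membrane importer gene SLC39A1 the lowest (-0.28 ± 0.16, 0.42).

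Copper, the other metal that metallothioneins hold in cells, has its own importers and chaperones, of which 8 of 12 listed genes were measured. Of these 0 passed limma at either dose. At an unadjusted p under 0.05 there were 2 and 1 of 8, against 14.6% and 16.6% of all genes. The copper importer gene SLC31A1 had values of 5.90, 6.35 and 6.47 in the controls, 7.51, 7.09 and 6.60 at 100 µg/ml, and 7.05, 7.32 and 7.06 at 250 µg/ml. Both doses lay above the controls without overlap, as did 6.41% of all genes at 100 µg/ml and 8.61% at 250 µg/ml. Its changes were 0.83 ± 0.24 (limma adjusted p = 0.22) and 0.91 ± 0.24 (0.12). Its relative SLC31A2 had changes of -0.63 ± 0.22 (0.27) and -0.37 ± 0.22 (0.43).

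Outside the metallothioneins, 9 genes reported as targets of MTF1 were listed, SLC30A1 among them, and 8 were measured. At 100 µg/ml 0 passed limma, with 2 of 8 at an unadjusted p under 0.05, against 14.6% of all genes. At 250 µg/ml 1 fell and 0 rose, where 0.162% of all genes fell. There 7 of 8 had an unadjusted limma p under 0.05, against 16.6% of all genes. Treated arrays at 250 µg/ml lay above all controls in 2 of 8 and below in 4 (8.61% and 14.3% of all genes). The gene that passed was NDRG1, a stress and hypoxia responsive gene. Its values were 9.76, 9.98 and 10.01 in the controls, 9.24, 9.20 and 8.72 at 100 µg/ml, and 8.51, 8.51 and 8.68 at 250 µg/ml. It fell by 1.35 log2 units at 250 µg/ml (SE 0.16, adjusted p = 0.013), which is 2.54-fold lower, and its change at 100 µg/ml was -0.86 ± 0.16 (0.13). The call ended without CSC_250 replicate 1 (0.076) or CSC_250 replicate 2 (0.10), with only the 6 arrays compared (0.068), with unmoderated variance (0.073) and with the replicate block (0.24). The glutathione synthesis gene GCLC had a change of 1.49 ± 0.26 at 250 µg/ml (0.052), the largest upward change of the list; it also belongs to the next list, was named after its values were seen, and passed without control replicate 3 or CSC_250 replicate 3. The median changes of the 8 were -0.17 and -0.23, and at 250 µg/ml 3 means were higher and 5 lower. The list does not record whether MTF1 raises or lowers each gene. Its directions and medians are therefore no measure of MTF1 activity, which was not tested.

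Cadmium and electrophiles also raise genes through NRF2 and heat shock factors, and 9 of 12 such genes were measured on the same arrays. At 100 µg/ml 2 rose and at 250 µg/ml 4 rose in limma, with 0 falling, where 0.0563% and 0.387% of all genes rose. The list was chosen with earlier results of these data known, so these counts beside those shares are no test of it. HMOX1, which encodes the haem-degrading enzyme induced by cadmium, had log2 values of 6.26, 6.53 and 6.38 in the controls, 9.29, 9.13 and 8.12 at 100 µg/ml, and 10.36, 10.94 and 10.54 at 250 µg/ml. The cystine transporter gene SLC7A11 was the other one to rise at 100 µg/ml, and GCLM, the modifier subunit of glutathione's first enzyme, and SRXN1, sulfiredoxin, rose with them at 250 µg/ml. The heat shock genes measured, DNAJB1 and HSPH1, named after their values were seen, did not pass in this fit. DNAJB1 had changes of -0.23 ± 0.16 (limma adjusted p = 0.52) and -0.23 ± 0.16 (0.49). HSPH1 had 0.60 ± 0.17 (0.21) and 0.83 ± 0.17 (0.066). The medians over the 9 were 0.85 and 1.49. Over the alternatives run the count ranged from 0 to 7 at the high dose and from 0 to 4 at the low dose, in both cases highest with array weights. At 250 µg/ml it was 0 with unmoderated variance (HMOX1 adjusted p = 0.054), and 1, HMOX1, without CSC_250 replicate 2, with only the 6 arrays compared or with the replicate block. At 100 µg/ml leaving out control replicate 1, CSC_100 replicate 1 or CSC_100 replicate 2 gave 0, as did the replicate block, the 6 arrays alone, unmoderated variance and keeping probe sets of several genes. Leaving out control replicate 2 or CSC_100 replicate 3, or quantile normalization, gave 1. So the 3 measured members of the zinc response had changes between -0.47 and 0.10 at the low dose and between 0.03 and 0.48 at the high dose, on arrays where HMOX1 stood at 2.46 ± 0.29 and 4.23 ± 0.29.

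Glucocorticoids are a further inducer of metallothionein genes, and 7 of 8 listed target genes of their receptor were measured. Of these 0 passed limma at either dose, with median changes of -0.01 and -0.07. At an unadjusted p under 0.05 there were 1 and 1 of 7, against 14.6% and 16.6% of all genes. The phosphatase gene DUSP1 had changes of -0.66 ± 0.17 (adjusted p = 0.20) and -0.75 ± 0.17 (0.081), and the kinase gene SGK1 0.71 ± 0.46 (0.49) and 0.88 ± 0.46 (0.38).

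Over the 9 arrays MT1G and MT1X correlated at Pearson r = 0.29 (0.55 without CSC_250 replicate 2 and CSC_100 replicate 3, the arrays farthest from the median of MT1G). SLC30A1 correlated at 0.38 with MT1G and at 0.30 with MT1X, which came to 0.18 and 0.02 without the 2 farthest arrays. These are descriptions of the same 9 arrays in 3 groups. Among 5025 other genes with an SD of at least 0.3, those with the highest r with the mean of MT1G and MT1X were PSME2, a proteasome activator subunit gene (0.92), the mitochondrial ribosome gene MRPL55 (0.85), LDAF1 (0.80), the G protein subunit gene GNG5 (0.80) and KRT10-AS1 (0.79). Without CSC_250 replicate 3 and control replicate 2, the arrays farthest from the median, these were 0.84, 0.86, 0.61, 0.70 and 0.75. The lowest were DPY19L2P2 (-0.77), ASCC3 (-0.76) and CPN1 (-0.75), which came to 0.03, -0.07 and -0.26 without those arrays. As extremes of 5025 correlations over 9 arrays, such values describe these arrays only.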

How the data were processed

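Expression was measured on 9 Affymetrix exon arrays. The authors deposited 1 log2 value per probe set and array. RMA, Partek and build hg18 appear in the submitters' processing notes, without versions or settings. RMA normalizes arrays together and can compress changes of dim genes. The platform annotation names 1 gene for 14378 of 17629 probe sets, several for 2405 and none for 846. Symbols were updated through RefSeq, and the probe set with the highest mean was kept, leaving 14207 genes. A linear model with a mean for each group was fitted to the 9 arrays together (limma 3.58.1, R 4.3.3), with Benjamini-Hochberg adjustment at 0.05. The fit was checked on simulated data. The members and gene lists were chosen with earlier results of these data known. Named genes were the members, the other metallothioneins, up to 4 called genes per list (otherwise the 2 with the largest change at 250 µg/ml), and the 5 most and 3 least like MT1G and MT1X in pattern; others are marked in the text. Promoters were searched in RefSeq sequence; protein identity between members was not computed. Same-numbered arrays of both doses correlated in their deviations from the group means at 0.44 to 0.68. They were taken as paired only in the alternative with the replicate block, which rests on the data and not on the labels. With the controls the lowest correlation was -0.14, so no pairing was assumed. The main fits had no block, so their differences between doses have the SEs of unpaired groups. The number of arrays limits the precision.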

Additional observations from a re-analysis of the deposited data

How the results depend on the processing

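The number of arrays, 3 per group, limits what could be detected. In all alternatives run, 0 of the 3 members passed in any comparison. The adjusted p ranged from 0.33 to 0.73 for MT1G and 0.47 to 0.97 for MT1X at 100 µg/ml, and from 0.55 to 0.98, 0.61 to 0.97 and 0.18 to 0.58 for MT1G, MT1X and SLC30A1 at 250 µg/ml. The mean change of MT1G and MT1X ran from -0.52 to -0.26 at 100 µg/ml and from -0.12 to 0.50 at 250 µg/ml; without dim genes it had no value, since both fall under that limit. Some signs turned. SLC30A1 at 100 µg/ml was -0.0821 with array weights, -0.0479 without the dosed arrays numbered 3 and -0.0792 to 0.201 with single arrays left out. At 250 µg/ml, MT1X was -0.263 without the dosed arrays numbered 3 and -0.263 to 0.683 with single arrays left out, and MT1G -0.258 to 0.322. MT1X between doses was -0.00656 without the arrays numbered 3. The cause was not tested. The replicate block changed no call of a member or of a probe set that names several metallothioneins (for the pairing of both doses, SLC30A1 had 0.386 with adjusted p = 0.37); against the controls it left 0 genes at 100 µg/ml and 1 at 250 µg/ml. Over all settings the genes called numbered 0 to 73 at 100 µg/ml (9 in the reported fit) and 1 to 296 at 250 µg/ml (78), the highest with array weights and without control replicate 3, respectively; at 250 µg/ml it was 19 without CSC_250 replicate 1 and 4 without CSC_250 replicate 2. Between doses the count was 0 in every setting.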

Other observations

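The metallothionein cluster lies between BBS2 and NUP93 on chromosome 16 in the RefSeq annotation, with OGFOD1 next to BBS2; these neighbours were chosen after their values had been seen. OGFOD1, a ribosomal protein hydroxylase gene, had log2 values of 6.36, 6.13 and 6.97 in the controls, 7.45, 8.19 and 7.69 at 100 µg/ml, and 7.78, 8.01 and 7.78 at 250 µg/ml. Both doses lay above the controls without overlap, as did 6.41% of all genes at 100 µg/ml and 8.61% at 250 µg/ml. Its changes were 1.29 ± 0.25 (limma adjusted p = 0.14) and 1.37 ± 0.25 (0.053), so neither passed. NUP93, a nuclear pore gene on the other side, had changes of 0.45 ± 0.20 (0.34) and 0.28 ± 0.20 (0.50), with overlapping groups. NUDT21, on the far side of OGFOD1, had 0.29 ± 0.18 (0.47) and 0.04 ± 0.18 (0.92), and HERPUD1, beyond NUP93, -0.15 ± 0.24 (0.82) and -0.24 ± 0.24 (0.65), also with overlap.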
